A study of Homo sapiens with 8 samples.

Results

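The 46 genes described here encode the cyclins and cyclin-dependent kinases (CDKs) that drive the cell cycle, the inhibitors that restrain those kinases, and the proteins that carry out mitosis. They were chosen by gene symbol, and all 46 were among the 12235 genes listed in at least 1 of 8 ribosome profiling libraries of HEK293T cells. HEK293T is a human embryonic kidney line that expresses the SV40 large T antigen, a viral protein that binds the retinoblastoma protein and p53, both of which act on genes in this list. The cells were cultured in sufficient medium (Suff) or, overnight, in medium that lacked arginine (Arg-), leucine (Leu-) or methionine (Met-), in each case with dialyzed serum, and each medium was profiled once without cycloheximide (no CHX) and once after pretreatment with cycloheximide (CHX), a drug that halts elongating ribosomes. There was thus 1 library per condition and no replicate, so no difference given here has a replicate error or a p-value.

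The cell cycle runs on short-lived proteins. D-type cyclins with CDK4 or CDK6, then E-type cyclins with CDK2, carry cells from G1 into S phase, and the CDK inhibitors hold this step back. Cyclins A and B with CDK1 bring about mitosis, the Aurora and Polo-like kinases and kinesin motors build the spindle, and the spindle checkpoint holds back the anaphase-promoting complex (APC/C) until all chromosomes are attached. The mRNAs of many G2 and M phase genes are made together late in the cycle, through a promoter element called the cell cycle genes homology region (CHR), and their proteins are degraded at the end of mitosis.

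The CHR is shown here because it is a sequence that many of these genes share and that the choice of members did not use. The hexamer TTTGAA, its reverse complement TTCAAA, or the variant TTCGAA, which reads alike on both strands, was searched for in the 100 bases before each annotated transcription start in a promoter table from RefSeq (GRCh38.p14). Of the 46 members 35 were in that table, and 15 of them (42.9%) held a match, against 6.14% of the 27305 genes in the table. Counted by promoter, 15 of the 51 promoters of these members held a match, against 4.92% of the 35116 promoters in the table. CKS2 and KIF11 lay on opposite sides of their Suff level in the no-CHX libraries, CDC20 lay on opposite sides in the no-CHX and CHX libraries, and MKI67 was low in all libraries, and their last 80 bases before the start are given from 5′ to 3′ with the match in capitals.

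CKS2, chr9:89311115-89311194, plus strand: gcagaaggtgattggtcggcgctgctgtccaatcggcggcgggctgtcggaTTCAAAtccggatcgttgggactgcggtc
KIF11, chr10:92593050-92593129, plus strand: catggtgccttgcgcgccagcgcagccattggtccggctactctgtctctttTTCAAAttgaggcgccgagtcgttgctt
CDC20, chr1:43358901-43358980, plus strand: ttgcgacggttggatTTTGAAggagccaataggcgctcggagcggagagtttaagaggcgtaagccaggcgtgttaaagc
MKI67, chr10:128126424-128126503, minus strand: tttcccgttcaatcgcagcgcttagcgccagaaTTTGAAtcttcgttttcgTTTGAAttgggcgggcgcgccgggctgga

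Both a gene with a lower footprint density under starvation (CKS2) and a gene with a higher one (KIF11) held the hexamer, and MKI67 held 2 matches. Over members with a ratio, the median log2 ratio in Met- without CHX was 0.35 for 13 members with a match and -0.05 for 17 without. In Arg- and Leu- without CHX the corresponding medians were 0.21 and 0.42 with a match and 0.09 and 0.19 without. The 2 kinds of member overlapped broadly, from -1.92 to 1.04 with a match and from -1.34 to 1.55 without in Met-. TPX2, TTK, BIRC5, AURKA, UBE2C, BUB3, WEE1, CDK2 and cyclins D1, D2 and E2 were not in the table. A match is a stretch of letters in the reference and was not measured as a bound site here.

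The quantity measured was the density of ribosome footprints, the mRNA fragments that ribosomes protect from nuclease, on the coding sequence of each transcript, in RPKM, the reads per kilobase of coding sequence scaled to the reads of the library. Reads on coding sequences numbered from 1302523 to 3139745 in the no-CHX libraries and from 538222 (Met-) to 6434043 (Leu-) in the CHX libraries. Of the 46 members 44 were listed in each no-CHX library, and 35, 45, 44 and 10 in the Suff, Arg-, Leu- and Met- CHX libraries, where no transcript with fewer than 64 reads was listed (5 reads without CHX). Members made up from 0.465% to 0.610% of the summed RPKM without CHX and from 0.484% to 0.637% with CHX. Of 9 genes known to be made in HEK293T cells 8 or 9 were listed in each no-CHX library and from 3 to 6 with CHX, led by CKB at 1343 to 2846 RPKM over all 8 libraries. Of 8 genes of other cell types, COL1A1 was listed in 5 libraries, at 1.59 to 4.19 RPKM without CHX and 20.2 RPKM in Suff with CHX, and ALB, PTPRC, HBB, CD3E, EPCAM, COL1A2 and INS were listed in none.

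Each starved library was set against the Suff library of its own series as log2((RPKM + 1)/(RPKM in Suff + 1)), called the ratio below, for genes listed in both libraries at a mean RPKM of at least 10. On this scale a ratio of 1 is 2-fold higher and -1 is 2-fold lower than Suff, and low genes are pulled toward 0. A gene that was not listed was given no ratio, since absence was not a safe 0: cyclin A2 (CCNA2) and CDKN2A were listed in none of the 4 no-CHX libraries but at up to 249 and 3378 RPKM with CHX. Counting intervals are exact 95% (Clopper-Pearson) intervals of the log2 ratio of read densities, from recovered reads and without the added 1, and cover counting error only, not the spread between cultures or the copying of reads by PCR. Footprint density depends on mRNA abundance as well as on translation, and fewer cells in a cycle phase and fewer footprints per cell cannot be told apart in these bulk libraries.

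Without CHX the members as a whole stayed near their Suff level in Arg- and Leu-, while single members were several-fold higher or lower. The median ratio of the 41 members was 0.09 in Arg-, 0.21 in Leu- and -0.03 in Met-, where all genes had medians of -0.02, 0.14 and 0.32. In Arg- 5 members (12.2%) were at least 2-fold higher and 2 (4.88%) at least 2-fold lower, against 8.23% and 5.95% of all genes. In Leu- 5 were higher and 1 was lower, against 6.85% and 2.06%, shares not far from those of the members. In Met- 4 were higher and 5 were lower, against 20.2% and 5.34%, and the higher members made up 9.76% of the 41. RPKM is relative to each library, and relative to the median of all genes, which stood at 0.32 in Met-, 3 members were at least 2-fold higher and 13 at least 2-fold lower there. The shares of all genes relative to that median were not counted, and 20.2% and 5.34% are not their match. The counts relative to that median are therefore not read as a trait of the members. Counting intervals lay apart from 0 for 31 members in Arg-, 26 in Leu- and 29 in Met-. Such intervals were not formed for all genes, so these counts are not read as a trait of the members.

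**Figure D1:**
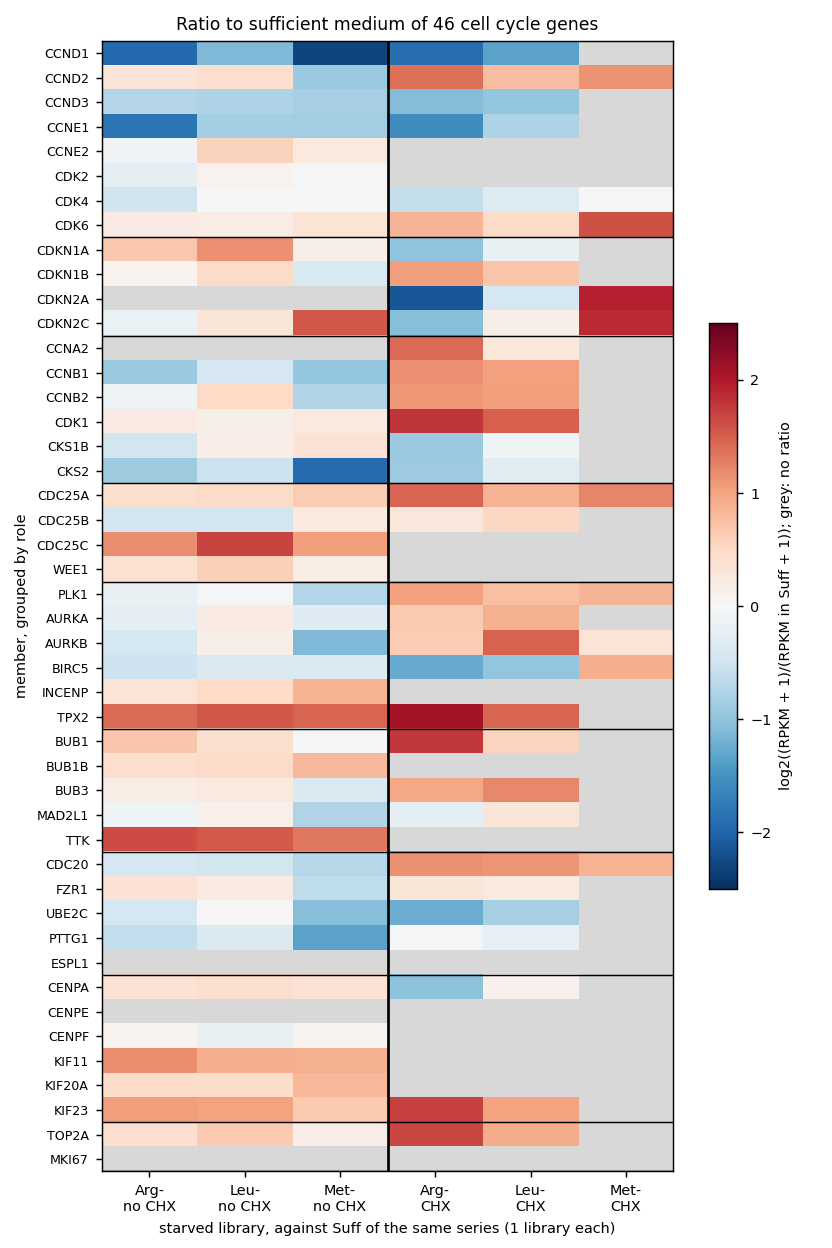
Log2 ratio of footprint density to Suff for the 46 members (rows, grouped by role with lines between roles) in the 6 comparisons (columns), coloured from blue (lower than Suff) to red (higher), with grey where a member had no ratio. Without CHX, CCND1 is blue in all 3 starvations while CDC25C, TPX2 and TTK are red, and with CHX the Met- column is mostly grey because 10 members were listed.

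Among the G1 cyclins and CDKs, cyclins D1, D3 and E1 were below Suff in all starvations that listed them, and the kinases were closer to Suff. Cyclin D1 (CCND1), the activator of CDK4 and CDK6 that links growth signals to the cycle, had the lowest ratio of all members in each no-CHX starvation. Its footprint density without CHX was 59.2 RPKM in Suff, 14.7 in Arg-, 27.1 in Leu- and 11.2 in Met-. With CHX it was 60.9 RPKM in Suff, 15.8 in Arg- and 23.5 in Leu-, and it was not listed in Met-. The no-CHX ratios were -1.94 (counting interval -2.74 to -1.35) in Arg-, -1.099 (counting interval -1.69 to -0.600) in Leu- and -2.298 (counting interval -3.34 to -1.58) in Met-, and the CHX ratios were -1.88 in Arg- and -1.34 in Leu-. All starved values of CCND1 thus lay below the Suff value of their series, and the no-CHX intervals rested on 165 reads in Suff and 13 to 36 in the starved libraries.

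Cyclin E1 (CCNE1), which activates CDK2 at the entry into S phase, stood at 29.2 RPKM in Suff, 7.55 in Arg-, 15.7 in Leu- and 15.6 in Met- without CHX and at 41.6 RPKM in Suff, 13.3 in Arg- and 23.9 in Leu-, and it was not listed in Met- with CHX. The ratios were -1.82 in Arg-, -0.85 in Leu- and -0.87 in Met- without CHX and -1.57 in Arg- and -0.78 in Leu- with CHX, so Arg- was the lowest library in both series. Cyclin D3 (CCND3) had no-CHX ratios of -0.73 in Arg-, -0.77 in Leu- and -0.82 in Met-, just short of 2-fold, and CHX ratios of -1.09 in Arg- and -0.98 in Leu-. Cyclin D2 (CCND2) differed from the other D cyclins, with densities of 229.5 RPKM in Suff, 287 in Arg-, 306 in Leu- and 121 in Met- without CHX and of 105 RPKM in Suff, 273 in Arg-, 178 in Leu- and 229 in Met- with CHX. It was above Suff in Arg- and Leu- in both series, while in Met- it was below Suff without CHX (-0.92) and above Suff with CHX (1.13). At its Suff level it would have given 48.8 reads in Met- with CHX, under the 64 needed for listing, so listing fixed that direction. Reads of CCND2 are uncertain, because 82.5% of the 28-base windows of its coding sequence also occur in an overlapping gene model.

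CDK4, the kinase partner of the D cyclins, had 268 to 378 RPKM without CHX, the highest density of this group in each library but Arg-, where cyclin D2 was higher, with ratios of -0.49 in Arg-, 0.003 in Leu- and -0.05 in Met-. CDK2, CDK6 and cyclin E2 (CCNE2) had no-CHX ratios between -0.22 (CDK2 in Arg-) and 0.58 (CCNE2 in Leu-). The median of the 8 genes was -0.35 in Arg-, 0.05 in Leu- and -0.44 in Met-, with cyclins D1, D3 and E1 below Suff in all 3. CDK2 was listed with CHX in Arg- alone, as a short transcript of 117 coding bases, so it had no CHX ratio.

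The CDK inhibitors differed from each other. CDKN1A (p21), an inhibitor of CDK2 that p53 induces, had 33.5 RPKM in Suff, 53.9 in Arg-, 75.6 in Leu- and 37.2 in Met- without CHX, and the Leu- ratio of 1.15 (counting interval 0.605 to 1.75) was its only 2-fold difference there, beside 0.67 in Arg- and 0.15 in Met-. With CHX its density was 82.6 RPKM in Suff, 40.6 in Arg- and 72.0 in Leu-, and it was not listed in Met-, and the Arg- ratio was -1.01 (counting interval -1.44 to -0.62), opposite in sign to that without CHX. In Leu- the CHX ratio was -0.19, so the 2-fold difference seen without CHX was not seen with it.

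CDKN1B (p27), an inhibitor that accumulates in resting cells, had 45.4 RPKM in Suff, 48.2 in Arg-, 63.8 in Leu- and 34.8 in Met- without CHX, with ratios of 0.09 in Arg-, 0.48 in Leu- and -0.37 in Met-. With CHX it had 52.6 RPKM in Suff, 109.5 in Arg- and 85.8 in Leu-, and it was not listed in Met-, with ratios of 1.04 in Arg- and 0.696 in Leu-. All 3 no-CHX counting intervals of CDKN1B included 0, and the series listed different transcripts of it. CDKN2C (p18), an inhibitor of CDK4 and CDK6, stood at 54.0 RPKM in Suff, 47.8 in Arg-, 67.2 in Leu- and 161 in Met- without CHX and at 101 RPKM in Suff, 47.9 in Arg-, 111 in Leu- and 369 in Met- with CHX. Met- was by far its highest library in both series, with ratios of 1.55 (counting interval 1.15 to 1.998) without CHX and 1.86 (counting interval 1.48 to 2.26) with CHX. CDKN2C was the only member at least 2-fold higher than Suff in Met- in both series among the 9 that had both ratios. At its Suff level it would have given 27.3 reads in Met- with CHX, where no transcript under 64 reads was listed. Only a density more than 2-fold above Suff could be listed there, so the CHX ratio is no support for the no-CHX one. Relative to the median of all genes CDKN2C stood at 0.97 in Met- with CHX, short of 2-fold. CDKN2A, whose locus encodes p16 and ARF, had 874 RPKM in Suff, 198 in Arg-, 642 in Leu- and 3378 in Met- with CHX, ratios of -2.14 in Arg-, -0.44 in Leu- and 1.95 in Met-, and 19.0% of its coding windows shared with its neighbour CDKN2B. The transcript used had 396 coding bases (132 codons), the length of ARF. These are therefore values for the ARF transcript. A CDKN2A transcript of 468 coding bases was listed as well. Windows shared between transcripts of the same gene were not counted. Footprints of ARF and of p16, the CDK inhibitor of this locus, are thus not told apart here.

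**Figure D2:**
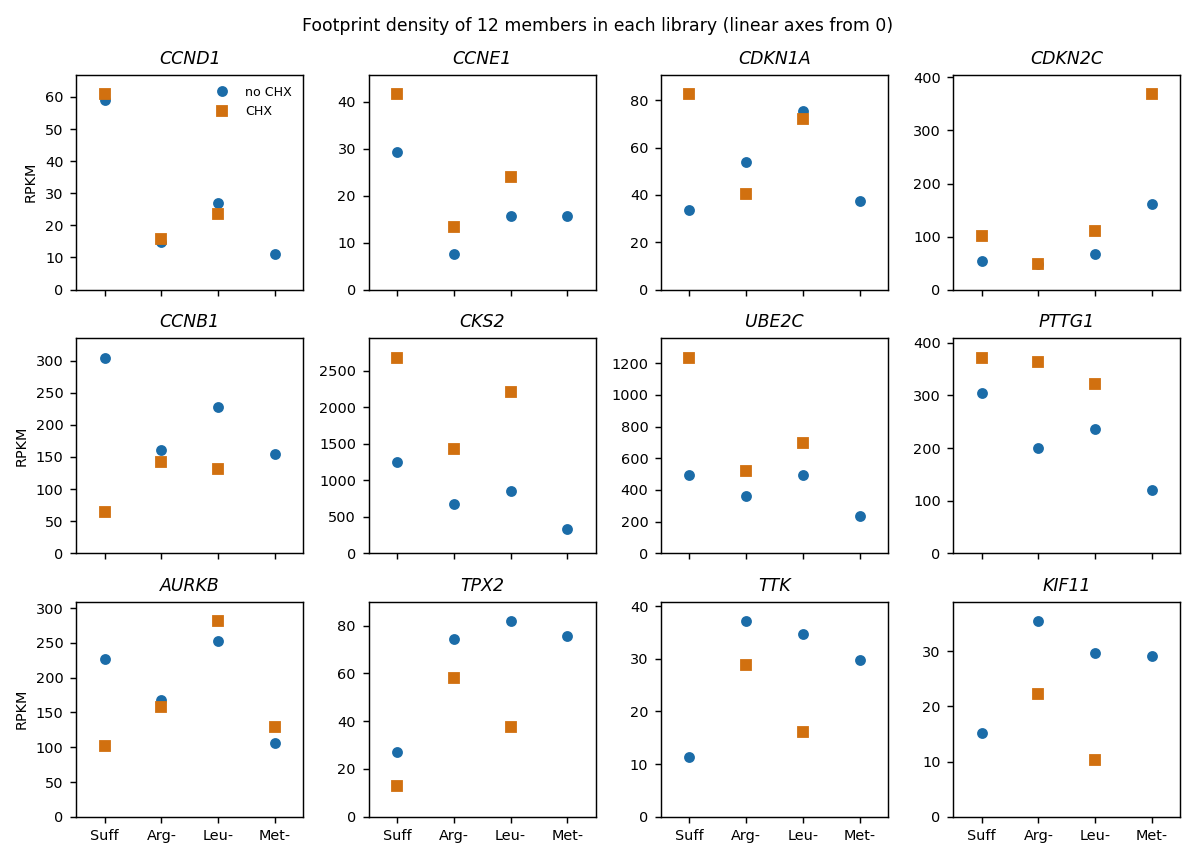
Footprint density (RPKM, linear axis from 0) of 12 members in the Suff, Arg-, Leu- and Met- libraries without CHX (circles) and with CHX (squares), 1 library per point and no point where a gene was not listed. CCND1 lies below Suff in every starved library, TPX2, TTK and KIF11 lie above Suff in the no-CHX starved libraries, and CDKN2C is highest in Met-.

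Cyclin B1 and CDK1, the pair that starts mitosis, had unlike densities without CHX. Cyclin B1 (CCNB1), which activates CDK1 at the entry into mitosis, had 305 RPKM in Suff, 160.2 in Arg-, 228 in Leu- and 155 in Met- without CHX, and all 3 starved libraries lay below Suff with ratios of -0.92 in Arg-, -0.42 in Leu- and -0.97 in Met-. With CHX its density was 64.04 RPKM in Suff, 143 in Arg- and 131 in Leu-, and it was not listed in Met-, where both starved values lay above Suff at 1.15 in Arg- and 1.02 in Leu-. CDK1 itself, the kinase of mitosis, was nearly level without CHX at 252 RPKM in Suff, 291 in Arg-, 277 in Leu- and 299.7 in Met-, with ratios of 0.21 in Arg-, 0.14 in Leu- and 0.25 in Met-. With CHX it was 82.0 RPKM in Suff, 285 in Arg- and 234 in Leu-, and it was not listed in Met-, and the ratios were 1.78 in Arg- and 1.501 in Leu-. In the no-CHX libraries the cyclin was therefore lower and its kinase near its Suff level (in Met- CDK1 was at -0.063 relative to the median of all genes), and with CHX both were at least 2-fold above Suff in Arg- and Leu-.

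CKS2, a small subunit that binds CDK1 and helps it reach its substrates, was the most densely occupied member in sufficient medium in both series. It had 1246 RPKM in Suff, 675 in Arg-, 855 in Leu- and 329 in Met- without CHX and 2678 RPKM in Suff, 1428 in Arg- and 2203 in Leu-, and it was not listed in Met- with CHX. Its no-CHX ratios were -0.88 (counting interval -1.09 to -0.68) in Arg-, -0.54 (counting interval -0.73 to -0.36) in Leu- and -1.92 (counting interval -2.23 to -1.62) in Met-, so Met- was 3.77-fold lower than Suff on this scale. At its Suff level CKS2 would have given 342 reads in the Met- CHX library, where it was not listed. Its close relative CKS1B had no-CHX ratios of -0.45 in Arg-, 0.17 in Leu- and 0.35 in Met-, but all 28-base windows of its coding sequence occur in other annotated genes, and 31.0% of those of CKS2 do, so their reads are uncertain. Cyclin B2 (CCNB2) ran from -0.75 in Met- to 0.49 in Leu- without CHX, and cyclin A2 had CHX ratios of 1.43 in Arg- and 0.26 in Leu-. The group's median was -0.45 in Arg-, 0.14 in Leu- and -0.75 in Met- without CHX (5 genes) and 1.12 and 0.64 in Arg- and Leu- with CHX (6 genes).

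The CDC25 phosphatases remove the inhibitory phosphates that WEE1 places on CDKs, and CDC25C among them acts on CDK1 before mitosis. CDC25C had 10.5 RPKM in Suff, 24.9 in Arg-, 36.2 in Leu- and 22.7 in Met- without CHX, with ratios of 1.17 (counting interval 0.66 to 1.83) in Arg-, 1.69 (counting interval 1.24 to 2.34) in Leu- and 1.04 (counting interval 0.47 to 1.74) in Met-. All 3 starved libraries were at least 2-fold above the same Suff library, which held a low density from 47 reads. With CHX it had 26.6 RPKM in Arg- and 10.6 in Leu-, and it was not listed in Suff or Met-, so no CHX ratio could be formed. CDC25A was above Suff in every comparison, at 0.42 in Arg-, 0.48 in Leu- and 0.63 in Met- without CHX and 1.46 in Arg-, 0.87 in Leu- and 1.22 in Met- with CHX. In Met- with CHX it could be listed only above Suff, since its Suff level would have given 34.7 reads, under the 64 needed. WEE1 had no-CHX ratios of 0.38 in Arg-, 0.59 in Leu- and 0.18 in Met- and CDC25B of -0.48 in Arg-, -0.47 in Leu- and 0.25 in Met-.

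The mitotic kinases and their partners differed from gene to gene. Polo-like kinase 1 (PLK1), which acts at centrosomes and kinetochores, had 165 RPKM in Suff, 145 in Arg-, 162 in Leu- and 99.6 in Met- without CHX, with ratios of -0.19 in Arg-, -0.03 in Leu- and -0.73 in Met-. With CHX it had 71.5 RPKM in Suff, 147 in Arg-, 121 in Leu- and 129 in Met-, with ratios of 1.03 in Arg-, 0.76 in Leu- and 0.85 in Met-. Suff was thus the highest of the no-CHX libraries for PLK1 and the lowest of the CHX libraries. Its lead over Leu- without CHX was within counting error (counting interval of the ratio -0.198 to 0.134). Aurora B (AURKB), the kinase of the chromosomal passenger complex that corrects faulty attachments, had 228 RPKM in Suff, 169 in Arg-, 252 in Leu- and 106 in Met- without CHX and 101 RPKM in Suff, 159 in Arg-, 281 in Leu- and 129 in Met- with CHX. Its no-CHX ratio was -1.099 (counting interval -1.37 to -0.85) in Met-, -0.43 in Arg- and 0.15 in Leu-, while the CHX ratios were 0.64 in Arg-, 1.47 in Leu- and 0.35 in Met-. The counting interval in Met- with CHX was -0.042 to 0.73, and relative to the median of all genes there AURKB stood at -0.54 and PLK1 at -0.042.

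TPX2, which activates Aurora A on spindle microtubules, was higher under starvation wherever it was listed. It had 27.1 RPKM in Suff, 74.4 in Arg-, 81.8 in Leu- and 75.7 in Met- without CHX, with ratios of 1.43 (counting interval 1.19 to 1.73) in Arg-, 1.56 (counting interval 1.33 to 1.86) in Leu- and 1.45 (counting interval 1.204 to 1.76) in Met-. With CHX it had 13.0 RPKM in Suff, 58.2 in Arg- and 37.4 in Leu-, and it was not listed in Met-, with ratios of 2.08 (counting interval 1.83 to 2.52) in Arg- and 1.46 (counting interval 1.18 to 1.89) in Leu-. Every starved library that listed TPX2 exceeded Suff by at least 2-fold. Aurora A (AURKA) had no-CHX ratios of -0.23 in Arg-, 0.198 in Leu- and -0.32 in Met-, survivin (BIRC5) of -0.52 in Arg-, -0.36 in Leu- and -0.36 in Met- and INCENP, the scaffold of the passenger complex, of 0.34 in Arg-, 0.49 in Leu- and 0.86 in Met-. Survivin was below Suff with CHX in Arg- (-1.26) and Leu- (-0.99) but above it in Met- (0.91).

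In the spindle checkpoint TTK stood apart. TTK (MPS1), the kinase that recruits the other checkpoint proteins to kinetochores, had 11.4 RPKM in Suff, 37.1 in Arg-, 34.8 in Leu- and 29.8 in Met- without CHX, with ratios of 1.62 (counting interval 1.32 to 2.09) in Arg-, 1.53 (counting interval 1.22 to 2.01) in Leu- and 1.32 (counting interval 0.97 to 1.81) in Met-. It was listed with CHX at 28.8 RPKM in Arg- and 16.2 in Leu- and not in Suff or Met-, so it had no CHX ratio. BUB1 and BUB1B, which bind kinetochores beside it, had no-CHX ratios of 0.69 in Arg-, 0.41 in Leu- and -0.03 in Met- and of 0.42 in Arg-, 0.47 in Leu- and 0.801 in Met-. MAD2L1 and BUB3, which are parts of the inhibitor of the APC/C, stood at 506 and 349.8 RPKM in Suff without CHX, where TTK, BUB1 and BUB1B stood at 11.4 to 26.0, and had their lowest no-CHX ratios in Met-, at -0.76 and -0.37. The group's no-CHX median was 0.42 in Arg-, 0.41 in Leu- and -0.03 in Met-.

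The APC/C activators, UBE2C and securin had their lowest no-CHX ratios in Met-. CDC20, the activator through which the APC/C starts anaphase, had 259 RPKM in Suff, 195 in Arg-, 188 in Leu- and 158 in Met- without CHX, with ratios of -0.41 in Arg-, -0.47 in Leu- and -0.71 in Met-. With CHX it had 63.9 RPKM in Suff, 143 in Arg-, 138 in Leu- and 118 in Met-, with ratios of 1.15 in Arg-, 1.09 in Leu- and 0.87 in Met-. As for CCNB1 and PLK1, every listed starved value of CDC20 lay below Suff without CHX and above Suff with CHX. For PLK1 the Leu- value without CHX was within counting error of Suff. Relative to the median of all genes CDC20 stood at -0.016 in Met- with CHX. There CDC20 could be listed only above Suff, since its Suff level would have given 51.5 reads, under the 64 needed. The ubiquitin-conjugating enzyme UBE2C, which works with the APC/C, had 492 RPKM in Suff, 363 in Arg-, 496 in Leu- and 235 in Met- without CHX and 1235 RPKM in Suff, 521 in Arg- and 698 in Leu-, and it was not listed in Met- with CHX. Its no-CHX ratio in Met- was -1.06 (counting interval -1.32 to -0.83), beside -0.44 in Arg- and 0.01 in Leu-, and its CHX ratios were -1.24 in Arg- and -0.82 in Leu-.

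Securin (PTTG1), which blocks separase until the APC/C destroys it, had 305 RPKM in Suff, 199.8 in Arg-, 237 in Leu- and 119.8 in Met- without CHX and 372 RPKM in Suff, 364 in Arg- and 322 in Leu-, and it was not listed in Met- with CHX. Its no-CHX ratios were -0.61 in Arg-, -0.36 in Leu- and -1.34 in Met-, with a counting interval of -1.68 to -1.03 in Met-, and its CHX ratios were -0.03 in Arg- and -0.21 in Leu-. FZR1 (CDH1), the APC/C activator of late mitosis and G1, was below Suff in Met- (-0.64) and above it in Arg- (0.36) and Leu- (0.21) without CHX. The 4 genes with a ratio had a median of -0.89 in Met-, with all 4 below 0, and of -0.42 in Arg- and -0.18 in Leu-. Separase (ESPL1) was listed without CHX at 6.96 to 10.6 RPKM, and its mean was under 10 in each pair. Windows shared with other genes were 32.6% of CDC20, 33.9% of PTTG1 and 12.5% of UBE2C, as they were 50.3% of MAD2L1, 33.2% of AURKA and over 5% of 14 of the 46 members, so part of their reads is uncertain.

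The kinesins KIF11, KIF20A and KIF23 were above Suff in every starvation without CHX. KIF11 (Eg5), which pushes the spindle poles apart, had 15.3 RPKM in Suff, 35.4 in Arg-, 29.7 in Leu- and 29.1 in Met- without CHX, with ratios of 1.16 (counting interval 0.896 to 1.54) in Arg-, 0.92 (counting interval 0.62 to 1.300) in Leu- and 0.89 (counting interval 0.57 to 1.28) in Met-. With CHX it was listed in Arg- at 22.2 RPKM and in Leu- at 10.3 RPKM and in neither Suff nor Met-. KIF23, a motor of the central spindle and of cell division, had 16.1 RPKM in Suff, 34.2 in Arg-, 33.4 in Leu- and 25.8 in Met- without CHX and 8.82 RPKM in Suff, 30.9 in Arg- and 18.7 in Leu-, and it was not listed in Met- with CHX. Its ratios were 1.04 in Arg-, 1.005 in Leu- and 0.65 in Met- without CHX and 1.701 in Arg- and 1.003 in Leu- with CHX, and it and TPX2 were the only members at least 2-fold higher in both series, in Arg- as well as in Leu-. KIF20A had no-CHX ratios of 0.45 in Arg-, 0.46 in Leu- and 0.82 in Met-. The centromere histone CENPA had ratios of 0.36 in Arg-, 0.42 in Leu- and 0.36 in Met- whose counting intervals all included 0, and the large kinetochore protein CENPF stayed within -0.18 and 0.09. The kinesin CENPE was listed at 5.03 RPKM in Suff, 7.20 in Arg-, 5.44 in Leu- and 4.64 in Met- without CHX, too low for a ratio and below Suff in Met-.

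The proliferation markers lay on opposite sides of Suff. Topoisomerase II alpha (TOP2A), which untangles sister DNA, had 40.7 RPKM in Suff, 54.6 in Arg-, 64.5 in Leu- and 45.8 in Met- without CHX, with ratios of 0.41 in Arg-, 0.65 in Leu- and 0.16 in Met-. With CHX it had 8.84 RPKM in Suff, 30.2 in Arg- and 17.7 in Leu-, and it was not listed in Met-, with ratios of 1.66 in Arg- and 0.93 in Leu-. MKI67, the Ki-67 protein that coats mitotic chromosomes, had 8.96 RPKM in Suff, 4.26 in Arg-, 5.06 in Leu- and 6.44 in Met- without CHX and 6.2 RPKM in Suff, 4.27 in Arg- and 4.11 in Leu-, and it was not listed in Met- with CHX, and its mean was too low for a ratio. Its starved values lay below Suff in both series, where TOP2A lay above Suff in all 5 starved libraries that listed it.

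With CHX the members' medians lay above those of all genes in Arg- and Leu-. The median ratio of 33 members was 0.64 in Arg- and 0.49 in Leu-, where all genes had -0.23 and 0.02. In Arg- 13 members were at least 2-fold higher and 9 at least 2-fold lower, against 16.6% and 19.7% of all genes, and relative to the all-gene median the counts were 15 and 5. The shares of all genes relative to that median were not counted. In Leu- 8 members were at least 2-fold higher and 1 was lower, against 12.1% and 7.28% of all genes. Both comparisons used the same Suff CHX library, and for 19 of the 33 members that library was below both Arg- and Leu-, and for 11 above both. This position was not counted over all genes. In Met- 10 members were listed, with a median of 1.02 where all genes had 0.89, and 5 were at least 2-fold higher and 0 lower, against 46.7% and 9.79%, while relative to the all-gene median 1 was higher. Of these, CCND2, CDK6, CDKN2C, CDC25A, AURKB and CDC20 would have given 22.3 to 56.3 reads there at their Suff level, under the lowest listed count of 64. They could be listed only above Suff, so that cutoff set their sign. The counts of higher and lower members in Met- are therefore not read as a result.

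The Met- CHX library of 538222 reads listed none of cyclins A2, B1 and B2, CDK1 and the CKS subunits, and none of the checkpoint, centromere, kinesin, TOP2A and MKI67 group. Of the 35 members listed in Suff CHX, 5 would have given at least 2 times the lowest listed count of 64 reads in Met- at their Suff level, and 3 of these were listed (60.0%), where 522 of 681 such genes in all were (76.7%). The other two were CKS2 and UBE2C, at 342 and 279 reads. Of the 25 members listed in Suff CHX and not in Met-, 7 would have given more than 64 reads at their Suff level, namely these 2, PTTG1 (121), BUB3 (119.8), MAD2L1 (112), CKS1B (83.2) and cyclin A2 (64.1). The other 18 would have given 13.7 to 58.6 reads, so a level at or below Suff could not be seen for them at this depth.

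The series without and with CHX, which share no library, can be set beside each other. The ratio had the same sign in both for 22 of 31 members in Arg- (71.0%) and 23 of 31 in Leu- (74.2%), near the 71.1% and 71.2% of all genes. In Met- 3 of 9 members had the same sign (33.3%), where 70.5% of all genes did. CCND2, CDK6, CDKN2C, CDC25A, AURKB and CDC20 could be listed in Met- with CHX only above Suff, so the cutoff of 64 reads set their sign there. No conclusion is drawn from the Met- share. TPX2 and KIF23 were at least 2-fold higher in both series in Arg- and in Leu- (KIF23 only just in Leu-). CCND1 was at least 2-fold lower in both in Arg- and in Leu-, and CCNE1 in Arg-. For 13 members, namely cyclins B2 and D3, CDK2, CDK6, CDKN1B, CKS1B, CDC25C, WEE1, BUB1, BUB1B, TTK, FZR1 and UBE2C, the series listed different transcripts, and the preparation of the files differed beyond the drug, since duplicate reads were removed from the no-CHX series alone, so drug and preparation cannot be told apart.

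**Figure D3:**
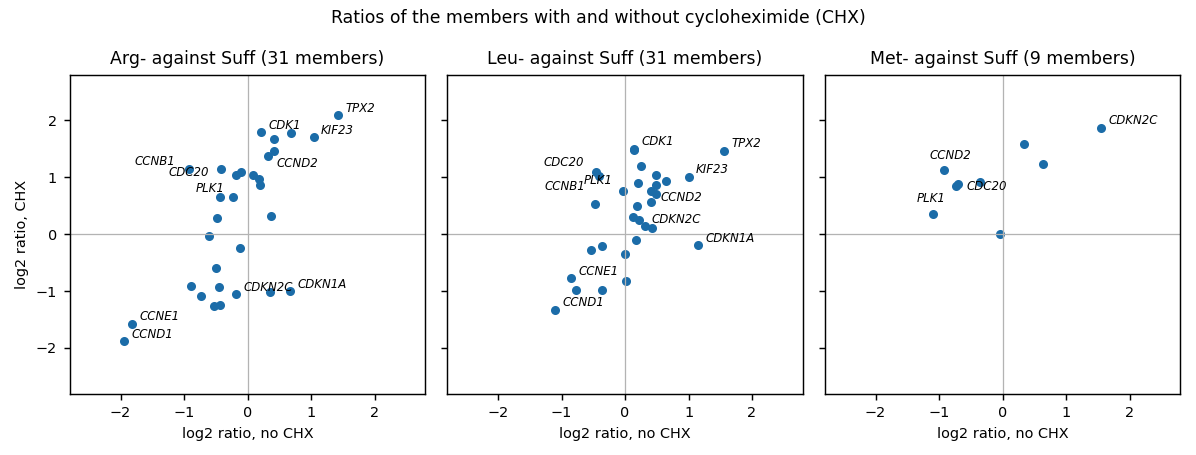
Log2 ratio to Suff without CHX (horizontal) and with CHX (vertical) for the members with both ratios, 31 in Arg-, 31 in Leu- and 9 in Met-, 1 point per gene, with lines at 0. TPX2 and KIF23 lie at the upper right and CCND1 at the lower left in Arg- and Leu-, while CCNB1 and CDC20 lie at the upper left.

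Coding length moved with these ratios without CHX, and with CHX in Arg- and Leu-, and differs between the roles. Across the 41 members the ratio and the length had a Spearman rho of 0.53 in Arg-, 0.36 in Leu- and 0.41 in Met- without CHX, where across all genes it was 0.36, 0.31 and 0.44. With CHX it was 0.70 in Arg- and 0.58 in Leu- across 33 members, where all genes had 0.48 and 0.42. In Met- with CHX it was -0.48 across 10 members, where all genes had 0.55. CCND2, CDK6, CDKN2C, CDC25A, AURKB and CDC20 could be listed there only above Suff. No conclusion is therefore drawn from the Met- value with CHX. The points share their libraries and the Suff value, and genes are not independent replicates. TPX2, TTK, KIF11 and KIF23 (2349 to 3168 coding bases) belong to the longest quartile of genes, whose median ratio over all genes was 0.36 in Arg-, 0.40 in Leu- and 0.79 in Met-. CKS2, UBE2C and PTTG1 (237 to 606 coding bases) belong to the shortest quartile, whose medians were -0.31, -0.08 and -0.17. After the median of each length quartile was subtracted, TPX2 stood at 1.07 in Arg-, 1.16 in Leu- and 0.66 in Met-, and TTK at 1.26, 1.13 and 0.52. KIF11 stood at 0.80, 0.52 and 0.09 after that step, and KIF23 at 0.68, 0.61 and -0.15, so in Met- both were about as far from Suff as other long genes.

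Members of medium length lay below other genes of that length in Met-. In the second and the third quartile (762 to 1863 coding bases) members had median ratios of -0.37 and -0.64 in Met- without CHX, where all genes had 0.17 and 0.46, and 3 of 13 and 2 of 7 members lay above the median of their quartile. CCND1, CCNB1, CDC20 and AURKB are among these, and after subtraction they stood at -2.47, -1.43, -1.17 and -1.27 in Met-. In the longest quartile members and all genes were alike there, at 0.80 and 0.79.

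**Figure D4:**
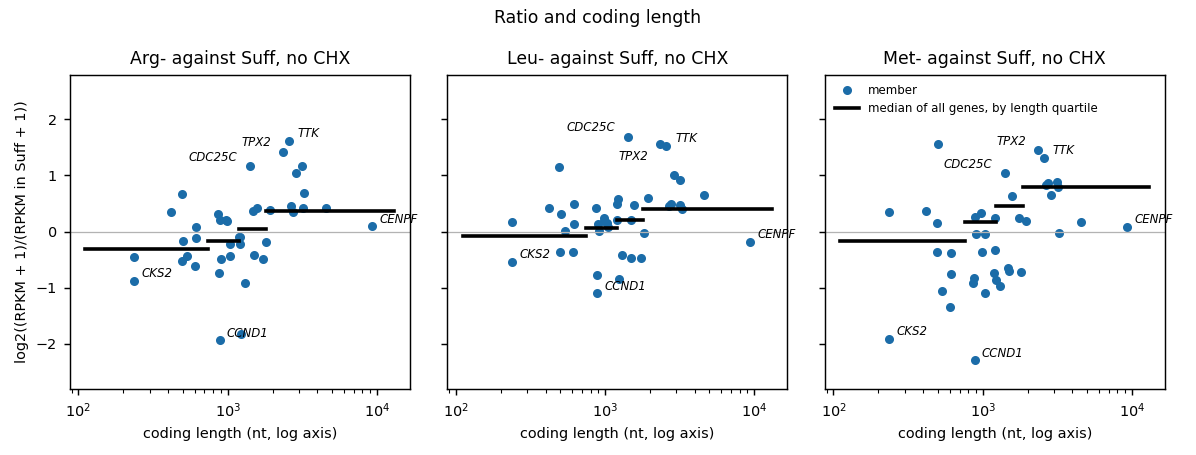
Log2 ratio to Suff without CHX against coding length (nucleotides, log axis) in Arg-, Leu- and Met-, with 1 point per member and black bars at the median of all genes in each length quartile. The bars lie higher at greater length in all 3 panels, CCND1 and CKS2 lie far below their bars in Met-, and TPX2, TTK and CDC25C lie above theirs.

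The members' median content of each missing amino acid was close to that of all genes. The median share of arginine codons was 5.66% in members and 5.63% in all genes, that of leucine codons 10.5% and 9.76%, and that of methionine codons 2.20% and 2.13%. CCNB1 had the highest methionine share of the members at 5.08%, with 22 of 433 codons, followed by CKS1B and CKS2, each at 5.06%, and the no-CHX ratios of the 3 in Met- were -0.97, 0.35 and -1.92. CDKN2A had the highest arginine share at 18.9%.

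Other genes of these pathways were read in the same way. Of 50 other G2 and M phase genes 41 had a no-CHX ratio in Arg- and Leu- and 44 in Met-. In Arg- 7 were at least 2-fold higher and 1 lower, in Leu- 7 and 0, and in Met- 8 and 0, with medians of 0.31, 0.46 and 0.33, above those of all genes in Arg- and Leu- and close to it in Met-. The higher genes were 17.1%, 17.1% and 18.2% of those with a ratio, where 8.23%, 6.85% and 20.2% of all genes were higher, so the share in Met- was not above that of all genes. NDC80, a kinetochore protein that grips microtubules, was the highest of them in Arg- at 1.90, and SPC25, its partner in the same complex, was the lowest at -1.07. The 14 core subunits of the APC/C had medians of 0.14, 0.12 and 0.44, and 0, 0 and 3 of them (21.4%) were at least 2-fold higher and 2, 1 and 0 lower. Other G1 regulators had medians of -0.11, 0.16 and 0.31, with 3 of 21 (14.3%), 2 of 21 (9.5%) and 2 of 23 (8.7%) at least 2-fold higher and 2, 0 and 2 lower. Among these CDKN2D (p19), another inhibitor of CDK4 and CDK6, was the highest in Met- at 1.91 and in Leu- at 1.35.

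Genes that p53 is known to induce had medians of 0.27, 0.61 and 0.56 without CHX, with 4 of 14 (28.6%), 5 of 14 (35.7%) and 5 of 16 (31.2%) at least 2-fold higher, against 8.23%, 6.85% and 20.2% of all genes, and 1 lower in each, BTG2. GADD45A was the highest in Arg- at 2.25 and in Leu- at 1.95, TP53INP1 the highest in Met- at 2.15, and several of these genes also answer other stress signals. With CHX 7 of them had a ratio in Arg- and in Leu-, with medians of 0.02 and 0.09. In Arg- 1 (14.3%) was at least 2-fold higher and 2 (28.6%) lower, against 16.6% and 19.7% of all genes. In Leu- 2 (28.6%) were higher and 0 lower, against 12.1% and 7.28%. In Met- with CHX only 2 had a ratio. CDKN1A, the member of this kind, had its highest no-CHX density in Leu- and little difference in Met-.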

How the data were processed

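As deposited, each file held 1 RPKM value for each Ensembl transcript, with reads normalised by coding length and by library. Per the methods, the authors trimmed adaptors with a Perl script (the submitters' processing notes name cutadapt), selected footprints by length and trimmed low-quality bases. They then aligned reads without mismatch to the human transcriptome (GRCh38, Bowtie) and kept uniquely mapped reads. Footprints that near-identical genes share were not all left out by this step. CKS1B, whose 28-base windows all occur in other annotated genes, held 600 reads in Suff without CHX. Duplicates were removed in the no-CHX series. Versions and the annotation release are not given in the sources used here.

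The highest transcript of each gene (symbols and lengths from GENCODE 44) was used per library, and genes listed in both libraries of a pair at a mean RPKM of at least 10 were compared with a pseudocount of 1. Reads were recovered from whole steps of RPKM times coding length (tolerance 0.01 of a step, 97.2% to 97.4% of matched transcripts). Calculations used Python 3.11.15, numpy 2.4.6, pandas 2.3.3 and scipy 1.17.1, and were tested on simulated data. Values in every library were given for members at least 2-fold from Suff in at least 1 no-CHX comparison and for 9 set members (CCND1, CDKN1A, CDKN1B, CCNB1, CDK1, PLK1, CDC20, TOP2A and MKI67), 20 in all. The other members were given by role, with ratios or ranges, and CCND2 with all values, since its signs differed between series. The members and all lists were chosen with earlier results of these data known. Alternatives were a pseudocount of 0.1, a minimum of 50 or none, absent genes as 0, summed transcripts, the same transcript in both libraries, at least 64 reads, and centring on all genes or (added after seeing the data) within length quartiles.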

Additional observations from a re-analysis of the deposited data

Results flagged for a closer look

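The ratio to Suff had opposite signs without and with CHX for 12 pairs of member and starvation, with counting intervals apart from 0 in both series. Such pairs were not counted over all genes. Members shared a sign between the series in 71.0% of cases in Arg- and 74.2% in Leu-, near the 71.1% and 71.2% of all genes. The difference between the series was not tested, and there was 1 library per condition.

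In Arg- the no-CHX and CHX ratios were -0.92 and 1.15 for CCNB1, -0.41 and 1.15 for CDC20, -0.19 and 1.03 for PLK1, and -0.43 and 0.64 for AURKB, all lower without the drug and higher with it. CDKN1A was the reverse in Arg-, at 0.67 and -1.01. In Leu- the ratios were -0.42 and 1.02 for CCNB1, -0.47 and 1.09 for CDC20 and -0.47 and 0.52 for CDC25B. In Met- they were -0.92 and 1.13 for CCND2, -0.71 and 0.87 for CDC20, -0.73 and 0.85 for PLK1, and -0.36 and 0.91 for BIRC5. The Met- CHX signs of CCND2 and CDC20 were set by the listing cutoff of 64 reads, since their Suff level would have given 48.8 and 51.5 reads. PLK1 would have given 69.6 reads, close to that cutoff, so only a density slightly below Suff could have been listed for it.

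For CCNB1, CDC20 and PLK1 the Suff library had the lowest listed RPKM of the CHX series (64.04, 63.9 and 71.5) and the highest of the no-CHX series (305, 259 and 165). The part of the Suff library in the sign was not tested. Without CHX the counting interval of PLK1 in Leu- included 0. The Met- CHX ratios of CDC20 and PLK1 were below the median of all genes in that comparison (0.89).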

How the results depend on the processing

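The medians of the members with CHX ran over the 9 alternatives from 0.31 to 0.96 in Arg- and from 0.28 to 0.52 in Leu-. Without CHX they ran from -0.22 to 0.11 in Arg- and from -0.37 to 0.03 in Met-, so no direction is read from them. The Leu- no-CHX median of 0.21 was 0.073 after centring on all genes. The Met- CHX median of 1.02 was 0.13 after that centring and 0.28 after centring within length quartiles, and it was -5.74, with 19 of 29 members 2-fold lower in place of 0, when absent genes counted as 0, because that setting adds members that this library of 538222 reads did not list.

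With a minimum of 50 RPKM, the no-CHX counts were 1 higher and 0 lower in Arg- (5 and 2 as reported), 2 and 0 in Leu- (5 and 1), and 2 higher in Met- (4), and no member was lower in Leu- with CHX (1). With at least 64 reads in both libraries, 0 were lower in Arg- (2), and 3 were higher and 0 lower in Leu- (5 and 1), without CHX. Centring on all genes gave 13 lower in Met- without CHX (5), 1 higher in Met- with CHX (5), 5 lower in Arg- with CHX (9) and 2 lower in Leu- with CHX (1). Centring within length quartiles gave without CHX 3 higher in Arg- (5), 2 lower in Leu- (1), and 1 higher and 10 lower in Met- (4 and 5). With CHX it gave 3 lower in Arg- (9), and 5 higher and 2 lower in Leu- (8 and 1). Shares of all genes after either centring were not counted.

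Among named members whose counting interval was apart from 0, centring on all genes turned the sign of CDC20 (-0.016) and PLK1 (-0.042) in Met- with CHX and of CDK1 (-0.063) in Met- without CHX. Centring within length quartiles turned CDC20 (-0.502) and PLK1 (-0.68) in Met- with CHX, KIF23 (-0.145) in Met- without CHX, and CKS2 (0.14) and PTTG1 (0.21) in Leu- with CHX. The cause was not tested. No replicate could be left out, since there was 1 library per condition, and no paired analysis was possible because the labels give no replicate numbers.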

Other observations

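With CHX, 13 of 31 other G2 and M phase genes were at least 2-fold higher than Suff in Arg- and 2 were lower, with a median ratio of 0.72, where 16.6% of all genes were higher and 19.7% lower. In Leu- 9 of 30 were higher and 1 lower, with a median of 0.59, where 12.1% and 7.28% of all genes were. UBE2S, the enzyme that extends ubiquitin chains on APC/C substrates, was the lowest of them in both, at -2.48 in Arg- and -1.59 in Leu-, while the condensin subunit SMC4 was the highest in Arg- at 2.44. In Met- with CHX 9 of these genes had a ratio, of which 5 were at least 2-fold higher, where 46.7% of all genes were, led by the spindle protein TACC3 at 3.12.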
